A study of Mus musculus with 9 samples.

Results

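Vascular endothelial cells were taken from a Dropseq table of dissociated mouse trigeminal ganglia. It holds 6997 barcodes, each barcode being a single-cell transcriptome attached to a microparticle (STAMP). Whether the cells came from vessels of the ganglion itself was not tested. A barcode was counted as an endothelial member when 200 to 8500 genes had a UMI (a unique molecular identifier, which marks 1 captured transcript), at least 2 of the 7 genes Cldn5, Flt1, Pecam1, Cdh5, Emcn, Ly6c1 and Egfl7 had a UMI, at most 2 of the 6 neuronal genes Nefl, Nefm, Uchl1, Snap25, Scn9a and Tubb3 did, and Epcam, an epithelial adhesion molecule, had none. Of 6464 barcodes within the gene limits, 146 met the rule, a share of 2.26% (exact binomial 95% interval 1.91 to 2.65%). These 14 genes chose the members, so their values describe the choice.

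All 9 Dropseq samples came from 1 group, wild type FVB/N mice aged 3 to 6 weeks by the labels, and there was no treatment, mutant or other group. Ganglia of pooled animals were dissociated with a neural tissue kit, passed over a Percoll gradient and depleted of non-neuronal cells before capture. The labels call the cells trigeminal neurons, so endothelial members are cells that the depletion had left, and their share says nothing of vessel density in the ganglion. The barcodes do not name the sample they came from. The table was therefore treated as 1 pooled sample, no spread between samples could be measured, and every value below is a description without a test.

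Endothelial cells line blood vessels and seal them with junctions, of which claudin-5 (Cldn5) forms the tightest part. In brain and nerve they form a barrier, in which ATP-driven pumps return foreign molecules to the blood and solute carriers import glucose, lipids and hormones. Other vessels are permeable, and the diaphragms of their openings are made of the protein encoded by Plvap. Venules also carry selectins, which slow passing leukocytes, and ETS-family factors such as ERG, which bind a GGAA core, help to keep endothelial genes on.

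Endothelial members held 1001 to 7234 UMIs with a median of 1468.5, and a median of 884.5 genes. They were set beside 3 kinds of barcodes with at most 1 of the 7 endothelial genes. These were 237 glia with at least 3 of 6 glial genes, Mbp and Sox10 among them, and a median of 1601 UMIs, 3594 neurons with at least 4 of the neuronal genes and a median of 3156, and 427 erythroid barcodes with a median of 1410. Levels are given as CPM, the UMIs of a gene per 1000000 UMIs summed over a group, with exact Poisson 95% intervals. Since 1 UMI stands for 1 captured transcript end, CPM was not divided by gene length. Shares of barcodes with a UMI carry exact binomial 95% intervals, and all intervals cover counting error only. For a count of 0, the limit given is not the exact interval but the share or level that 3 counts would give. No UMI of a gene in the 146 members thus allowed a share of up to 2.05% and a level of up to 11.5 CPM.

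The promoters of genes high in endothelial members over the other 6318 barcodes were searched for the core that ETS factors bind. Promoters from RefSeq (GRCm38.p6) were at hand for 20 of the 30 leading genes, which were those with the largest CPM ratio among genes seen in at least 20% of members. The letters AGGAAG, which contain the GGAA core, were searched on both strands in the 250 bases before the start, and were present in 15 of the 20 (75%). Of the 20, 4 were rule genes, which helped to choose the members (Cldn5, Emcn, Flt1 and Ly6c1), and 3 of these held the letters. Counted per gene in the same way, they were present in 31.4% of the 11535 tested genes with a promoter and in 32.3% of all 27025 genes of the table. Per promoter the share was 29.5% of 32851. Cldn5, Car4, Kdr, Igfbp7 and Slfn5 were the 5 without a match. Of 315 genes that were at least 4-fold higher in members and seen in 20% of them, 238 had a promoter in the table, and 44.1% of these held the letters. Another string with the GGAA core, CCGGAAG, does not contain AGGAAG. It was present in 1 of the 20 (5%), against 14.3% of tested genes and 7.83% of all genes of the table. A match describes the letters only and does not show a bound site.

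The windows of 6 leading genes are shown because they code for proteins of the vessel surface, junctions and secretions, 5 with a match and Cldn5 without one. They were chosen after the matches were known. Capitals mark AGGAAG or its reverse complement CTTCCT, positions count back from -1 at the last base of a window, and every window is written 5′ to 3′ on the strand of the gene. Robo4, an endothelial guidance receptor, has its window at chr9:37401722-37401971 (plus strand) with a match starting at -49. Flt1, a VEGF receptor, has its window at chr5:147726012-147726261 (minus strand) with matches at -129 and -53. Emcn, a sialomucin of capillary and venous surfaces, has its window at chr3:137340828-137341077 (plus strand) with matches at -174 and -93. Eng, a co-receptor for BMP ligands, has its window at chr2:32646345-32646594 (plus strand) with matches at -52 and -6. Lrg1, a secreted glycoprotein of venous endothelium, has its window at chr17:56121947-56122196 (minus strand) with matches at -125, -66 and -29. Cldn5 has its window at chr16:18776597-18776846 (plus strand) with no match.
Robo4: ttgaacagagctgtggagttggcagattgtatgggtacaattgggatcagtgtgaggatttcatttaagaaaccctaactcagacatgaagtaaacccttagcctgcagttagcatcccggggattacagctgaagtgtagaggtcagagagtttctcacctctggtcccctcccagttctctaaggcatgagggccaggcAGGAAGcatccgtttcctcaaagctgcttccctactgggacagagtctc
Flt1: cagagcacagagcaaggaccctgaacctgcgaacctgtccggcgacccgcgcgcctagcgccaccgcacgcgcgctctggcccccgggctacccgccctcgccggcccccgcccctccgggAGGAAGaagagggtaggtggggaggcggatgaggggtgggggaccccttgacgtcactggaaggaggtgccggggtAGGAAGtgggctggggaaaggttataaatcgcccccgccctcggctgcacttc
Emcn: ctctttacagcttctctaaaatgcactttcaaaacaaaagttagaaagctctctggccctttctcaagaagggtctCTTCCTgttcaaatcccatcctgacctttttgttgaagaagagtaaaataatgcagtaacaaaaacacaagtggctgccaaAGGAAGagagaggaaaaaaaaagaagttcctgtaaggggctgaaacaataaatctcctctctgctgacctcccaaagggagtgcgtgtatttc
Eng: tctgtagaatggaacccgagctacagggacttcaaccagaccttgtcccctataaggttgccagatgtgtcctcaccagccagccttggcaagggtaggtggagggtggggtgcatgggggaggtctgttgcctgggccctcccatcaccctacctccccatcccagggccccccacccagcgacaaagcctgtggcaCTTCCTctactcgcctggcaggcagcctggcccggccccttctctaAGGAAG
Lrg1: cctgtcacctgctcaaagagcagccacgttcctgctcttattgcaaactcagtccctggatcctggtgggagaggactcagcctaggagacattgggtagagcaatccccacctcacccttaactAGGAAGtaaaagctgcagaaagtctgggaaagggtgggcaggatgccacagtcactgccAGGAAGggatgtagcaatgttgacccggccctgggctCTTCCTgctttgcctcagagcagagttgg
Cldn5: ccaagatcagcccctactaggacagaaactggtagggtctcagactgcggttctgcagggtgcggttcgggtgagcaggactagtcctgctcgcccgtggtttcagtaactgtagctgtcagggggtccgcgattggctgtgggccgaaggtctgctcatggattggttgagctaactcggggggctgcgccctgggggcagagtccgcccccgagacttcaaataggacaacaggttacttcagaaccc

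Among the genes of the rule, Ly6c1, a surface protein of capillary endothelium, was the most abundant. It lay at 2999 CPM (2793 to 3217), with 0 to 41 UMIs per member and a median of 4, and its reads can be shared with its near-identical neighbour Ly6c2. Flt1 lay at 1419 CPM (1278 to 1571) and was seen in 113 of the 146 members. Emcn and Egfl7, a secreted factor of the vessel wall, were seen in 113 members each as well. Pecam1, an adhesion molecule between endothelial cells, was seen in 94 members, and Cdh5, the cadherin of their adherens junctions, in 72. Cldn5 was the rule gene seen least often, in 50 members at 403 CPM (329 to 488). All 7 genes were seen in 10 members, 6 in 30, 5 in 42, 4 in 30, 3 in 22 and only 2 in 12. Outside the members, Egfl7 had the highest level of the 7 in neurons (42.5 CPM), where 17.4% of barcodes held it, against 1.15 CPM or less for the other 6.

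The 64 other barcodes with at least 2 endothelial genes that held 3 or more neuronal genes were not members, nor were the 13 with Epcam (5 had both). Of the members, 62 held no neuronal gene of the rule, 59 held 1 and 25 held 2. Just outside the rule, 69 barcodes met the other conditions with 1 endothelial gene, which was Egfl7 in 36 and Ly6c1 in 13.

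The label was checked with 20 endothelial markers that the rule did not use. At least 2 of them were seen in 141 of the 146 members, and the median member held 9. The median was 2.5 in the 12 members with only 2 rule genes and 11.5 in the 10 members with all 7. It was 0 in the 69 barcodes with 1 rule gene, of which 9 held 2 or more of the markers, and 0 in the 1230 with none, of which 21 did. The members with 2 rule genes had a median of 1433.5 UMIs and those with all 7 had 2822.5, so depth added to the gradient. After each barcode was thinned at random to 1000 UMIs, 140 members still held at least 2. The medians were then 2.5 with 2 rule genes and 8.5 with all 7. The members with few rule genes therefore carried fewer markers but stood above the barcodes just outside the rule.

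**Figure D1:**
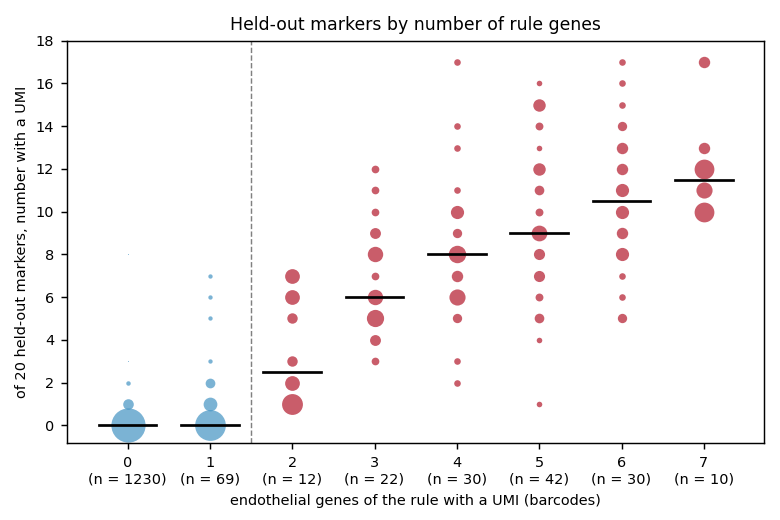
Barcodes that met the other conditions of the rule, by number of endothelial rule genes with a UMI (x axis, barcodes per column in parentheses) and by number of the 20 held-out markers with a UMI (y axis). The area of a circle is the share of its column's barcodes, black bars are medians, and members are red and lie right of the dashed line. The medians as deposited go from 0 with 0 or 1 rule gene to 11.5 with 7, which fell to 8.5 after thinning to 1000 UMIs.

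Each of the 20 held-out markers was seen in over 20% of members. Ctla2a, a cysteine protease inhibitor, was seen in 107 members and Esam, an endothelial adhesion molecule, in 104. Tm4sf1, a membrane protein of endothelial cells, was seen in 103, Cd93, a receptor of the vessel surface, in 96, and Ramp2, a receptor partner described below, in 95. At the lower end stood Sox18, a transcription factor of vessel development, in 32 members (21.9%, interval 15.5 to 29.5%), and Robo4 in 34. At 1000 UMIs a barcode, where shares can be compared between groups of unequal depth, the 20 shares ran from 15.1 to 65.8% in members. In glia, which should lack these genes, 19 of the 20 were seen in 2.11% of barcodes or fewer, and Ecscr in 7.59%. The members thus carried endothelial markers that the rule had not asked for.

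**Figure D2:**
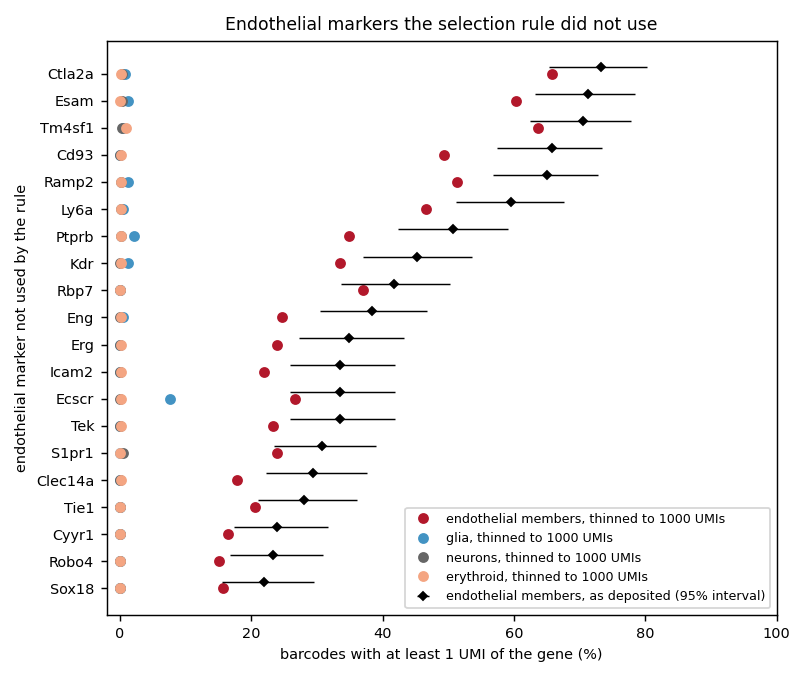
Share of barcodes with a UMI (x axis, %) of each of the 20 endothelial markers that the rule did not use (y axis). Circles are shares after thinning to 1000 UMIs in members, glia, neurons and erythroid barcodes, and black diamonds with bars are the shares in members as deposited with exact binomial 95% intervals; members reach 15.1 to 65.8% at 1000 UMIs and the highest share in another group is Ecscr in glia (7.59%).

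Of 14856 genes with a UMI in at least 20 barcodes, 1385 (9.32%) were at least 4-fold higher in CPM in members than in the other barcodes, and 1007 (6.78%) were at least 4-fold lower. Against glia, 1037 (6.98%) were at least 4-fold higher. These shares are the background for the lists that follow, and the median log2 ratio over all tested genes was 0. They depend on how low counts were treated: with 10 or more UMIs in members, 814 genes were higher and 135 lower, with a UMI in at least 100 barcodes 670 were higher, and with counts under 3 raised to 3 in both groups 3343 were higher. Besides the rule genes and held-out markers, the leading 30 held Eltd1, an adhesion G protein-coupled receptor, at 460 CPM in 59 members. They also held Acvrl1, the type I receptor for BMP9 and BMP10, at 203 CPM in 42 members, and Car4, a carbonic anhydrase on the capillary surface, at 690 CPM in 64. Further leading genes were Mmrn2, a matrix protein of the endothelial surface, at 338 CPM in 62 members, and Slc39a8, a zinc and manganese carrier, at 790 CPM in 70. Nostrin, which binds the endothelial nitric oxide synthase, lay at 257 CPM in 40 members.

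Transcription factors of the endothelial lineage were represented by 18 tested genes, of which 15 were at least 4-fold higher in members than in the other barcodes, with a median log2 ratio of 5.82. Sox17, a factor of arterial and barrier vessels, lay at 433 CPM (357 to 521) in 63 members and at 1.95 CPM in glia. Epas1, the hypoxia-inducible factor 2-alpha, lay at 437 CPM (361 to 525) in 70 members, and no UMI was found in glia, so the level was at least 74.8-fold higher than the level of 3 glial UMIs. Erg was seen in 51 members and Fli1, a related ETS factor, in 33, and both had no UMI in glia. Klf2, which responds to blood flow, lay at 1599 CPM, but this gene also belongs to the immediate early list described below. Lef1, a factor of Wnt signalling, and the Wnt target Apcdd1 were seen in 39 and 9 members.

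Matrix genes had the largest summed level of the vessel lists. Of 18 basement membrane and matrix genes, 17 were at least 4-fold higher in members than in other barcodes and 12 than in glia. Sparc, a collagen-binding matrix protein, lay at 9033 CPM (8672 to 9405), with 0 to 92 UMIs per member and a median of 13.5. Glia held 2486 CPM of it, so the ratio to glia was 3.63 (3.39 to 3.89). Igfbp7, a secreted protein of vessel walls, lay at 6666 CPM (6356 to 6987) against 39.0 CPM in glia, a ratio of 171 (110 to 281). Both collagen IV chains were present, Col4a1 at 667 CPM and Col4a2 at 571 CPM, and the vascular laminin chain Lama4 lay at 253 CPM. Of the vessel matrix genes with these high levels, Sparc thus overlapped most with glia.

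Receptors for VEGF and angiopoietin were found on the members, while their ligands were scarce. Of 14 tested genes of this pathway, 9 were at least 4-fold higher in members than in other barcodes. Kdr, the main signalling receptor for VEGF, lay at 579 CPM (491 to 679) in 66 members, less than Flt1. Tek and Tie1, the angiopoietin receptor and its partner, lay at 276 and 222 CPM, and Ptprb, a phosphatase that acts on Tek, at 782 CPM. Nrp1, a VEGF co-receptor, lay at 817 CPM, and neurons held 190 CPM of it. Of the ligands, Vegfc was seen in 10 members, Angpt2 in 6 and Vegfb in 5. Of 12 tip cell and angiogenic genes, 2 or more were seen in 8 members only, and 2 members after thinning.

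BMP and TGF-beta genes were present as receptors and as targets. The target Id3, an inhibitor of transcription factors, lay at 1952 CPM (1786 to 2130), and its relative Id1 at 664 CPM (568 to 770), against 50.6 and 1.95 CPM in glia. The receptors Acvrl1, Eng and Tgfbr2 lay at 203, 326 and 92.1 CPM, and Bmpr2 at 65.2 CPM, where neurons held 50.4 CPM. Of 17 tested genes of this pathway 10 were at least 4-fold higher, and of 10 tested Notch genes 5 were. Notch1 was seen in 24 members and Notch4, the Notch receptor of endothelium, in 13. Hes1, a Notch target, lay at 311 CPM, whereas Hey1, another target, was seen in 12 members.

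Barrier genes were higher in the summed members and were seen in unequal numbers of them. Of 22 tested genes of the blood-brain and blood-nerve barrier, 18 were at least 4-fold higher in members than in other barcodes (median log2 ratio 4.38) and 17 than in glia. Among the ATP-driven pumps, Abcg2 lay at 1139 CPM (1013 to 1276) in 106 members and Abcb1a at 767 CPM (665 to 881) in 83, while Abcb1b, the paralog that could share reads with it, had 1 UMI. The organic anion carrier Slco1a4 lay at 725 CPM (625 to 836) in 72 members, and the glucose carrier Slc2a1 at 690 CPM (593 to 799) in 68. Mfsd2a, a lipid carrier of barrier endothelium, lay at 433 CPM in 58 members, but glia held 132 CPM (103 to 168), and at 1000 UMIs 14.3% of glia held it against 34.2% of members. The thyroid hormone carrier Slco1c1 was seen in 16 members and the lactate carrier Slc16a1 in 13, so these carriers marked a small part of the members. Of the junction genes of the barrier, Tjp1 was seen in 37 members, Lsr in 20 and Ocln in 6.

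Genes of fenestrated or permeable endothelium were present beside them. Of 14 tested, 11 were at least 4-fold higher in members and 1, Ehd3, was lower. Plvap lay at 1124 CPM (999 to 1260), with 0 to 23 UMIs per member, and was seen in 66 of the 146 (45.2%). At 1000 UMIs it was seen in 37.7% of members, in 0% of glia and in 1.11% of neurons. Aplnr, the receptor of apelin, was seen in 23 members and Gpihbp1, the capillary anchor of lipoprotein lipase, in 44. Members with at least 2 barrier genes numbered 130, those with at least 2 genes of permeable vessels 126, and 111 met both.

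**Figure D3:**
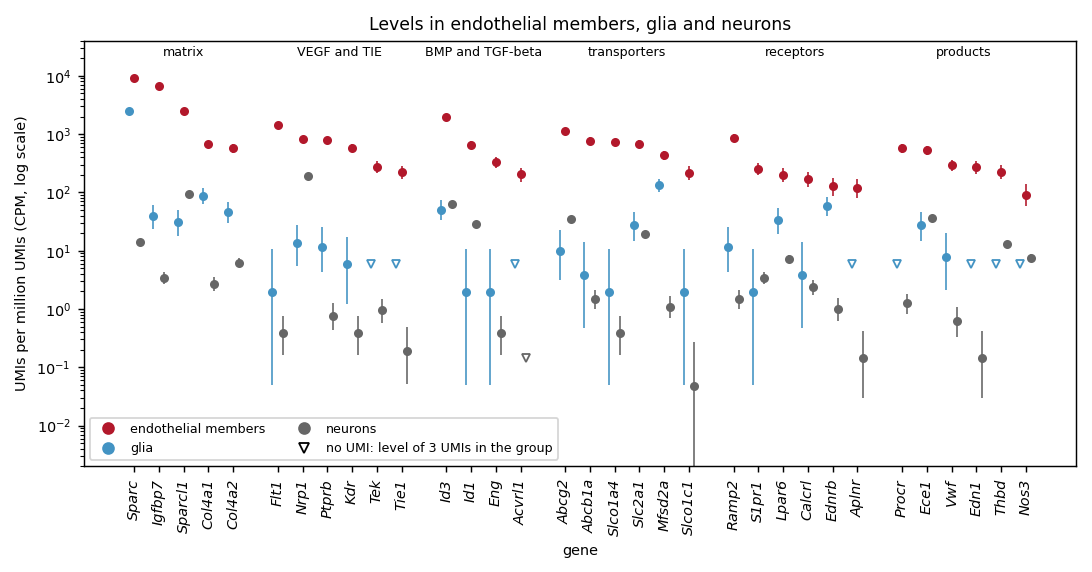
Levels (y axis, CPM on a log scale) of vessel genes in members (red), glia (blue) and neurons (grey), grouped by role, with exact Poisson 95% intervals. Open triangles mark groups with no UMI and stand at the level that 3 UMIs would give; Sparc and Mfsd2a are the genes nearest to their level in glia among matrix and transporter genes, and Nrp1 is the one nearest to neurons among VEGF and TIE genes.

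Arterial, venous and capillary genes did not sort the members into 3 separate kinds. At least 2 of the capillary genes were seen in 137 members, at least 2 arterial genes in 99 and at least 2 venous genes in 68. The capillary list holds Sparc, which was seen in 141 members and also in glia, so 2 of its genes are easily reached. At least 3 capillary genes were seen in 125 members. Both the arterial and the venous condition were met by 47 members, 47.5% of the first and 69.1% of the second. Within the arterial list, the connexin Gja4 was seen in 13 members, the arterial kinase Bmx in 9 and the Notch ligand Dll4 in 10, while Mgp, a matrix inhibitor of calcification, and the chemokine Cxcl12 were seen in 63 and 76. Mgp and Cxcl12 are also made by vessels other than arteries. Of the lymphatic genes, Prox1, the factor that defines lymphatic identity, had 2 UMIs in 2 members, and Pdpn had none. Lyve1, a hyaluronan receptor of lymphatic vessels, was seen in 15 members, and at least 2 lymphatic genes in 3.

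Fabp4 and the selectins were seen mostly in other members than the carriers Slco1a4, Slc2a1 and Mfsd2a. Fabp4, a fatty acid binding protein, had 375 UMIs in 27 members, with up to 81 in 1 member. Slco1a4, Slc2a1 and Mfsd2a were seen in 72, 68 and 58 of all members, and none of the 3 was seen in a member with Fabp4. A count of 0 in 27 members allows a share of up to 11.1% by the limit of 3 counts (the exact binomial bound is 12.8%), whereas 60.5% of the members without Fabp4 held Slco1a4. Of the 17 members with Sele (E-selectin), 16 held Plvap, 13 held Fabp4, 1 held Slco1a4 and none Slc2a1 or Mfsd2a. The 10 members with Selp (P-selectin) all held Plvap and Mgp, while 2 of them held Slco1a4, 3 held Abcb1a and none Slc2a1 or Mfsd2a. Of the 16 members with Slco1c1, all 16 held Slc2a1, 14 held Abcb1a and 1 held Plvap. By the GENCODE annotation of GRCm38, Sele (chr1:164048234-164057677, plus strand) and Selp (chr1:164115264-164150026, plus strand) are neighbours, as are Slco1a4 (chr6:141805440-141856199, minus strand) and Slco1c1 (chr6:141524368-141570177, plus strand), while Fabp4 lies at chr3:10204088-10208576 (minus strand) and Plvap at chr8:71497765-71511752 (minus strand). These pairs were picked after their values were known.

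A pair of 5-gene sets was used to group the members. The 10 genes were picked after it was seen which of them occurred together, so that the sets do not overlap follows in large part from this choice and is a description. At least 2 of Fabp4, Sele, Selp, Igfbp5 and Lyve1 were seen in 27 members with a median of 1822 UMIs, which are called the Fabp4 set here. At least 2 of Slco1a4, Slc2a1, Mfsd2a, Slco1c1 and Slc16a1 were seen in 73 members with a median of 1450, called the Slco1a4 set. No member met both conditions (of 146, a count of 0 allows up to 2.05% by the limit of 3 counts), and 46 met neither. After thinning to 1000 UMIs the conditions were met by 21 and 57 members, again with none in both. Barcodes with 3 or more markers of glia, mural cells, macrophages or neurons made up 3 of the 27 and 6 of the 73.

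Other genes differed between these sets. Mgp lay at 11694 CPM (10845 to 12592) in the Fabp4 set and 405 CPM (303 to 530) in the Slco1a4 set. Apoe, a lipoprotein component, lay at 9961 against 680 CPM. Icam1, which binds leukocyte integrins, lay at 1083 against 84.0 CPM, and Vwf, the von Willebrand factor of platelet adhesion, at 933 (705 to 1211) against 122 (69.9 to 198) CPM. Plvap lay at 2998 against 481 CPM and was seen in 25 of 27 and 21 of 73 members. Calcrl, a peptide receptor described below, lay at 300 (178 to 474) against 68.8 (31.4 to 131) CPM. The adhesion genes Icam2 and Cd34 had intervals that overlapped, with Icam2 at 283 (165 to 453) against 260 (180 to 363) CPM and Cd34 at 516 (351 to 733) against 619 (491 to 769). Markers of fibroblasts and smooth muscle were unequal between the sets. Col3a1 was seen in 11 of 27 against 1 of 73 members, Tagln in 4 against 0, Postn in 2 against 0 and Dcn in 3 against 2. Others were seen in the Slco1a4 set and not in the Fabp4 set, Rgs5 in 5 members, Col1a2 in 4, and Col1a1, Lum, Dpt and Kcnj8 in 1 each. In UMIs, Col3a1 had 16 against 33, all 33 in 1 member. The part of such cells in the levels of Mgp and the other genes was not tested.

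Other genes were lower in the Fabp4 set. Cxcl12 lay at 1222 CPM (1040 to 1427) in the Slco1a4 set and 33.3 CPM (4.03 to 120) in the Fabp4 set, where it had 2 UMIs. Car4 lay at 1100 against 16.7 CPM, Abcb1a at 1222 against 66.6, and Sox17 at 695 CPM, with 3 UMIs in the Fabp4 set. Lef1 lay at 413 against 16.7 CPM, and the BMP target Id1 at 978 against 167 CPM. Igfbp7 lay at 8976 against 1632 CPM. The genes of the rule helped to choose the members, and their levels in the sets are a description only. Cldn5 lay at 581 (457 to 727) CPM in the Slco1a4 set and 33.3 (4.03 to 120) in the Fabp4 set, Ly6c1 at 4255 and 666, Flt1 at 2040 and 633, and Egfl7 at 1375 and 933. Emcn at 985 and 1449 CPM and Pecam1 at 749 and 949 had the higher value in the Fabp4 set, with intervals that overlapped. Genes of the capillary and permeable lists went both ways. Gpihbp1, of both lists, lay at 535 (417 to 676) CPM in the Slco1a4 set and 83.3 (27.0 to 194) in the Fabp4 set, and Nrp1 at 901 (746 to 1080) and 600 (420 to 830). The capillary genes Cd300lg and Btnl9 lay at 145 and 38.2 CPM in the Slco1a4 set and 233 and 117 CPM in the Fabp4 set, with intervals that overlapped.

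Genes of all endothelial cells were close together in some cases and apart in others. Esam, a junction protein, lay at 566 (392 to 791) CPM in the Fabp4 set and 1558 (1352 to 1788) in the Slco1a4 set, while Tm4sf1 lay at 2565 (2176 to 3004) and 1184 (1005 to 1386), Eng at 533 (365 to 753) and 237 (161 to 336), and Clec14a at 450 (296 to 654) and 176 (111 to 264). Cdh5 lay at 483 (324 to 694) CPM in the Fabp4 set and 504 (390 to 641) in the Slco1a4 set, and Kdr at 566 (392 to 791) and 558 (437 to 701). Ramp2 lay at 999 (763 to 1287) and 863 (711 to 1038) CPM. The immediate early gene Fos lay at 10328 (9531 to 11174) and 10229 (9688 to 10792) CPM. Abcg2 was also present in both, at 700 and 1467 CPM, so this pump did not follow Abcb1a in being nearly absent from the Fabp4 set. Haemoglobin Hbb-bs, a transcript of red cells, lay at 19640 and 16715 CPM.

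**Figure D4:**
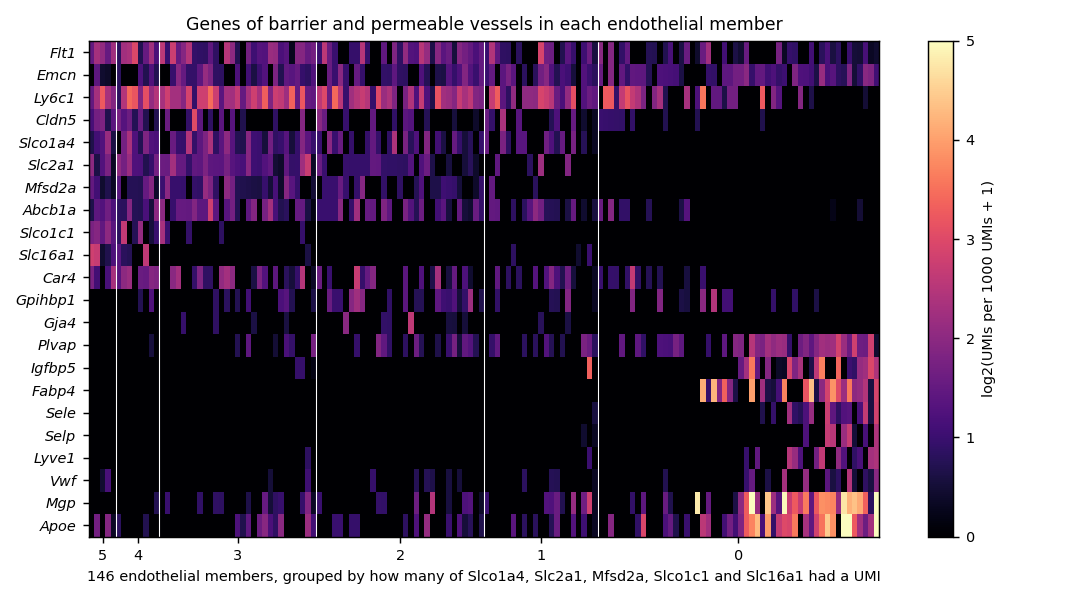
The 146 members (columns) and 22 genes (rows), coloured by log2(UMIs per 1000 UMIs + 1), with columns grouped by the number of genes of the Slco1a4 set with a UMI, from 5 at the left to 0 at the right, and ordered within a group by the number of genes of the Fabp4 set and by depth. Plvap, Fabp4, Sele, Selp, Lyve1, Mgp and Apoe are brightest at the right edge, where the transporters are dark.

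Members were also split by Plvap and the barrier list. The 66 members with Plvap had a median of 1764.5 UMIs, and the 74 without it and with at least 2 barrier genes had 1263.5, so the sides differed in depth. Of 4203 genes tested, 54 (1.28%) were at least 4-fold higher in CPM with Plvap and 47 (1.12%) at least 4-fold lower. The 54 include Plvap itself, which made the split, and after thinning to 1000 UMIs the counts were 48 and 26. Fabp4 had 330 against 0 UMIs, Sele 87 against 0, Igfbp5 161 against 6 and Apoe 639 against 84. Lower with Plvap were Slco1c1 (1 against 55 UMIs), Slc16a1 (1 against 44), Cldn5 (13 against 92) and Slc2a1 (38 against 142), of which the barrier genes helped to make the split. Of the Selp UMIs 90.1% and of the Sele UMIs 72.7% lay in 5 members. Plvap and barrier genes were not exclusive, since 56 of the 66 members with Plvap held at least 2 barrier genes.

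Receptors that let sensory peptides and mediators act on vessels were a mixed group. Of 20 tested, 11 were at least 4-fold higher in members than in other barcodes and 8 than in glia, and 1, P2ry1, was lower than in other barcodes with no UMI in members. Ramp2, a receptor activity-modifying protein, lay at 867 CPM (757 to 988) in 95 members, 74.2 times (33.5 to 204) the level in glia. Its partner Calcrl lay at 169 CPM (123 to 227) in 29 members, and 22 held both, a pair known as an adrenomedullin receptor. Ramp1, which makes Calcrl the receptor of the sensory peptide CGRP, had 6 UMIs in 2 members and was not seen together with Calcrl. Tacr1, the receptor of substance P, had no UMI in members, nor had Vipr1, Bdkrb2, Hrh1, Ptgir and P2ry1. At this depth, absence of these receptors was not shown. S1pr1, the sphingosine 1-phosphate receptor that stabilises vessels, lay at 253 CPM in 45 members, and Ednrb, an endothelin receptor, at 127 CPM (87.1 to 178) in 15, against 58.4 CPM (39.4 to 83.4) in glia.

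Products that act on blood flow and clotting formed another list. Of 15 tested, 13 were at least 4-fold higher in members than in other barcodes. Ece1, which activates endothelin, lay at 526 CPM in 78 members, and Edn1, the precursor of endothelin-1, at 269 CPM (209 to 339) in 30. Procr and Thbd, which activate protein C against clotting, lay at 571 and 226 CPM in 60 and 45 members, and had no UMI in glia. Nos3, the endothelial nitric oxide synthase, lay at 92.1 CPM in 21 members and Vwf at 292 CPM in 28. Adhesion and junction genes outside the barrier list were higher in 8 of 15 tested, among them Gja1 at 399 CPM in 48 members. Fatty acid and lipoprotein genes were at least 4-fold higher in 7 of 12 and lower in 3, Fabp5 and Slc27a4 among them, and the HDL receptor Scarb1 lay at 920 CPM in 81 members, against 23.4 CPM in glia.

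Class I antigen presentation and interferon-responsive genes were higher in 13 of 18 tested. Ly6e, a surface protein induced by interferon, lay at 2796 CPM (2597 to 3007) in 140 members, against 31.2 CPM in glia and 19.2 CPM in neurons. Ifitm3, a membrane protein that restricts viral entry, lay at 1987 CPM (1819 to 2166) in 121 members, against 15.6 CPM in glia. B2m and H2-D1, both chains of class I molecules, lay at 1902 and 2424 CPM, and reads of H2 genes may be shared between close paralogs. Isg15, a strong interferon target, was seen in only 9 members and Ifit1 in 4.

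Immediate early genes took a large part of the transcripts of endothelial members. The 21 genes of this list, which cells switch on within minutes of a stimulus and which enzymatic dissociation also induces, made up 0.143 to 10.5% of a member's UMIs, with a median of 3.45%. The medians were 0.190% in glia, 0.174% in neurons and 0.123% in erythroid barcodes. In CPM, 20 of the 21 were at least 4-fold higher than in other barcodes. At 1000 UMIs the median member held 11 of them, against 2 in glia and 1 in neurons. Fos, a subunit of the AP-1 factor, lay at 9739 CPM (9363 to 10125) and was seen in 141 members, with 0 to 121 UMIs and a median of 13. Its partner Jun lay at 5788 CPM, the feedback inhibitor Nfkbia of NF-kappaB at 3337 and Egr1, a factor induced by growth signals, at 3207. In glia, 53.2% of barcodes held a UMI of Fos, at 1615 CPM (1507 to 1729). The part of dissociation in these values was not tested, since no ganglion without it was in the series.

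**Figure D5:**
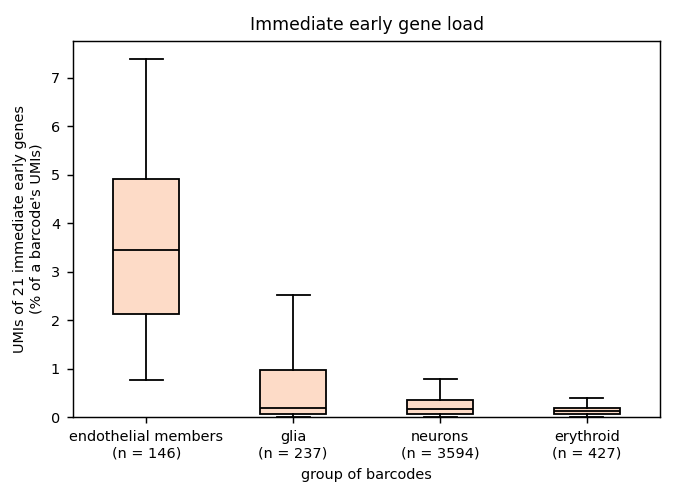
UMIs of 21 immediate early genes as a share of each barcode's UMIs (y axis, %) in members, glia, neurons and erythroid barcodes (x axis, number in parentheses). Boxes span the quartiles, lines are medians and whiskers reach the 5th and 95th percentiles; the median is 3.45% in members and 0.123 to 0.190% in the other groups.

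Markers of other cells were low in the members. Of 12 mural and smooth muscle markers, 8 had no UMI in members, Acta2, Myh11 and Pdgfrb among them, and the pericyte marker Rgs5 had 6 UMIs in 6 members. Of 11 macrophage and leukocyte markers 8 had no UMI, Csf1r and C1qa among them, and Ptprc had 1. Of the 4 that were tested, 1 was at least 4-fold higher in members than in other barcodes. The list summed to 23.0 CPM in members and 28.8 in other barcodes. The 10 neuronal markers outside the rule were all at least 4-fold lower than in other barcodes. Most of that reference is neurons and the rule limits neuronal genes, so this outcome was largely set beforehand. None of the 10 was 4-fold lower than in glia, where the list summed to 754 CPM. None of the 11 glial markers was higher, 6 were lower, and Sox10 and Fabp7 had no UMI. Of 8 tested fibroblast markers 2 were higher, Col3a1 with 51 UMIs in 13 members, of which 33 lay in 1 member and 11 of the 13 belonged to the Fabp4 set, and Postn with 4 UMIs in 2. Members with 3 or more markers of mural cells numbered 1, of fibroblasts 1, of glia 6, of neurons 7 and of macrophages 0. For the red cell and pituitary lists, taken up below, they numbered 110 and 6. Summed over each list, mural markers lay at 69.0 CPM in members and 64.3 in glia, glial markers at 1799 CPM in members and 141206 in glia, and neuronal markers outside the rule at 579 CPM in members and 22606 in neurons. The part of such transcripts in the levels above was not tested beyond leaving barcodes out. The 13 barcodes with 3 or more markers of the mural, glial, macrophage or neuronal lists were kept, and no doublet caller was run. Without them, 133 members remained, and 48 of 51 single-gene levels stayed within their interval. The others were Lyve1, which went from 284 to 184 CPM, Klf2, from 1599 to 1176, and Mgp, from 3360 to 3141.

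Transcripts of red cells were the most abundant of those foreign to endothelium. Haemoglobin genes took a median of 0.932% of a member's UMIs and 0.552% of a glial barcode's, with a highest value of 62.0% in a member, and 22 members were over 10%. Hbb-bs lay at 27359 CPM in members and 20615 in glia, a ratio of 1.33, and Hba-a1, whose reads can be shared with its paralog, at 10744 CPM. None of the 10 red cell markers was at least 4-fold higher in members than in other barcodes. That reference includes the erythroid barcodes, which raise its level, so this count cannot show whether members held an excess. Summed over the list, members held 42625 CPM, other barcodes 21597, glia 33319 and neurons 5236. Growth hormone (Gh), a pituitary transcript, was seen in 98 members at 3111 CPM against 1590 in glia, and 357 of its 811 UMIs lay in 1 member. Summed over 9 pituitary markers, members held 3333 CPM and other barcodes 23146. Whether some members came from vessels of tissue taken with the ganglion was not tested. Of 17 genes of dividing cells, none was at least 4-fold higher in members than in other barcodes, and 1 was higher than in glia. The other barcodes include the erythroid ones, which held 9595 CPM summed over the list. Members held 794 CPM, glia 425 and neurons 149. At least 3 of the genes were seen in 13 members, and Mki67 or Top2a, both used to mark cycling cells, in 15. Of these 13 members, 10 held at least 3 endothelial rule genes and 3 held at least 2 of 6 erythroid genes, so the cells that gave these transcripts could not be told apart.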

How the data were processed

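Dissociated trigeminal ganglia were captured by Dropseq in 9 samples, and the authors deposited 1 table of raw UMI counts of 21536 genes per barcode, not normalized and with at least 1000 UMIs per barcode. The submitters' processing notes name bcl2fastq 2.17, STAR 2.5.3a, Seurat 1.4.0.16 and the build mm10. Barcodes do not name their sample, so all were treated as 1 pooled sample without tests between groups. The same barcode sequence occurred in a pair of columns 6 times, with 0 members among those columns.

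The members, the gene lists and the genes named were chosen with earlier results of these data known. Named genes were those of the rule, the 30 leading genes by CPM ratio, the 10 most abundant other than mitochondrial and ribosomal ones, and genes of the lists, by level or for defining them; others were chosen after their values were seen. Python 3.11.15 with numpy 2.4.6, pandas 2.3.3 and scipy 1.17.1 gave CPM, shares and intervals. A count under 3 in the lower group was put at 3 before a fold was taken. Barcodes were thinned to 1000 UMIs with a fixed seed. Doublets were not called, and deposited barcodes with markers of other cells were left out as an alternative. Gene symbols follow the table; 3 genes of the lists (Ackr1, Plpp1 and Plpp3) stand there under older symbols. Other alternatives changed the rule, the fold, the filters, the reference group and the depth. Some genes of the lists are not reported here.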

Additional observations from a re-analysis of the deposited data

Results flagged for a closer look

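Among barcodes within the gene limits, 18 held at least 4 of the 7 endothelial genes but were not members, and were counted among the 6318 other barcodes. Of these, 13 held 3 or more neuronal genes and 6 held Epcam. They had 1001 to 38159 UMIs with a median of 2125.5, against a median of 1468.5 in the members. All 18 held at least 2 of the 20 held-out endothelial markers, with a median of 10 per barcode, where the median member held 9. The part of doublets or of free RNA in these barcodes was not tested.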

How the results depend on the processing

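The barcodes come from 1 pooled sample, so leaving out replicates was not possible, intervals cover counting error only, and a gene of low level is missed in most barcodes at this depth. No paired analysis was possible because the barcodes name no sample and the result comes from no test. The number of members moved most when no neuronal gene was allowed, to 62. The count of genes higher in members was 2776 at a fold of 2 and 754 at a fold of 8. It was 670 with a UMI in at least 100 barcodes, and, in alternatives added after seeing the data, 814 with 10 or more UMIs in members and 3343 with counts under 3 raised to 3 in both groups. The count of genes lower was 2739 at a fold of 2, 388 at a fold of 8, 669 against glia and 135 with 10 or more UMIs in members. Members with venous genes were 103 with 1 or more and 41 with 3 or more. With thinning, an added alternative, 26 genes were lower with Plvap. The cause of these changes was not tested beyond the change of threshold, filter or depth itself. Of 51 single-gene levels, 36 stayed within their interval with the mean of per-barcode CPM (ratios to the level given 0.599 to 1.22), 38 with thinning (0.485 to 1.16) and 29 with members that held no neuronal gene (0.674 to 1.96).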
